A study of Mus musculus with 14 samples.

Results

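The 10 genes described here, all of extracellular matrix remodelling, were followed in irradiated and control mouse hearts. They are the tissue inhibitors of metalloproteinases Timp1, Timp2, Timp3 and Timp4, the matrix proteases Mmp2, Mmp14 and Adamts2, and the lysyl oxidases Lox, Loxl1 and Loxl2. They were taken by symbol from a count table of 54532 genes, each symbol matched 1 gene, and all 10 passed the filter on low counts that left 16034 genes for testing. Bulk RNA was sequenced from the heart tissue of 14 wild-type male C57BL/6J mice aged 8 weeks at the start. The groups IRR_1d (n = 3) and IRR_6w (n = 4) had received a dose of 30 Gy of cobalt γ-rays to the anterior chest under anesthesia, with the rest of the body behind lead, and hearts were taken after 1 day and after 6 weeks. Control_1d (n = 3) and Control_6w (n = 4) were not irradiated and were taken at the same times; whether they were anesthetized was not given in the sources used here. The comparisons address how matrix remodelling genes differ early and late after irradiation, and the contrast of Timp4 with the other TIMPs was of particular interest.

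TIMPs are small secreted proteins that bind the active site of matrix metalloproteinases and block them. Timp4 is the family member known for its high level in the heart, whereas Timp1 is inducible by cytokines, Timp2 also takes part in the activation of the Mmp2 proenzyme by Mmp14 at the cell surface, and Timp3 binds to the matrix itself and also inhibits ADAM proteases. Lysyl oxidases act on the other side of remodelling, since they cross-link collagen and elastin fibres and make the matrix stiffer and harder to degrade.

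The promoters of the 4 TIMP genes are shown because the comparison sets Timp4 apart from its relatives. The RefSeq sequences (GRCm38.p6) run from 250 bases before to 50 bases after the start of each gene, and capitals mark matches to the GC box letters. They are chrX:20869916-20870215 on the plus strand for Timp1, chr11:118355362-118355661 on the minus strand for Timp2, chr10:86300162-86300461 on the plus strand for Timp3 and chr6:115252156-115252455 on the minus strand for Timp4. The RefSeq starts of Timp2 and Timp3 differ from the gene starts in the deposited table, and those of Timp1 and Timp4 are the same.
Timp1: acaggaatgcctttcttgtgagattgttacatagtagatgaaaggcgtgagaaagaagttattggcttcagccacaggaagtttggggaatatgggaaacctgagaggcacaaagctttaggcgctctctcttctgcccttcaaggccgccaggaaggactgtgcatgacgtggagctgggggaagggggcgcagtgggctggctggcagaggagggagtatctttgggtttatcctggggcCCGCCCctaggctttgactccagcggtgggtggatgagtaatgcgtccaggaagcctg
Timp2: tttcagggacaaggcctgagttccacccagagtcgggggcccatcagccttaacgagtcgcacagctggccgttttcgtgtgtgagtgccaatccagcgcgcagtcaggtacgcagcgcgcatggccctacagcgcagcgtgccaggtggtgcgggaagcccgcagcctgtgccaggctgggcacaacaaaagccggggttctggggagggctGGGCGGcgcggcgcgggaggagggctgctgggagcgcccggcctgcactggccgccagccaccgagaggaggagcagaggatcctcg
Timp3: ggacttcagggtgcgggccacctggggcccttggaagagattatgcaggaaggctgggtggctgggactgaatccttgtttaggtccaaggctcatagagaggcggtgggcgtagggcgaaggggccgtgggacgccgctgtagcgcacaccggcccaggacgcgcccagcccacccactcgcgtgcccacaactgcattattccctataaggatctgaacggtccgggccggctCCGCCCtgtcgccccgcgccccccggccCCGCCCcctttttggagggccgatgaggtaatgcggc
Timp4: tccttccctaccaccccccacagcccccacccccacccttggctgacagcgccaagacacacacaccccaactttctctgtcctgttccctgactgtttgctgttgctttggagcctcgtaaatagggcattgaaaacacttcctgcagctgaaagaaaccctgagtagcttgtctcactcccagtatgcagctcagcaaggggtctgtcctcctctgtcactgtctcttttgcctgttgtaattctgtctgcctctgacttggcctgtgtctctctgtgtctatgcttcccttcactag
The letters of 5 motifs were searched on both strands, each on its own, so that a base could count towards more than 1 motif. The GC box (GGGCGG), found in 35.7% of 32851 mouse promoters of this length, occurred once in Timp1, once in Timp2 and 2 times in Timp3, and the Timp4 window held none. The CCAAT box (CCAAT; 37.4% of promoters) occurred once in Timp1 and once in Timp2. An AP-1 motif (TGANTCA; 7.81%) and a TATA box (TATAAA; 13.6%) were in none of the 4 windows. The E-box (CANNTG; 72.3%) occurred 2 times in Timp2, 2 times in Timp3 and 1 time in Timp4. The GC content was 55.0% in Timp1, 68.7% in Timp2, 67.0% in Timp3 and 53.3% in Timp4, against a median of 52.7% over all promoters. A match of letters is a description of the sequence and not a site of binding. Of the other members, Mmp14 and Adamts2 were also in the promoter table, and Mmp2, Lox, Loxl1 and Loxl2 were not.

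Library totals ran from 13336746 to 16837265 counts, and by counting error 0 counts allow up to 3 counts. Levels are given as CPM, the counts scaled to a common library size, after trimmed mean of M-values correction (TMM-scaled CPM), and levels of different genes are compared per kilobase of gene length (FPKM). Some libraries stood apart. In replicate 1 of Control_1d, 30.7% of the genes that averaged 2 to 5 CPM had 0 counts, and the share was 21.6% and 8.62% in replicates 3 and 4 of IRR_6w and 1.98% in replicate 1 of Control_6w, against at most 0.445% elsewhere. Replicate 3 of Control_6w held 5006 CPM of 10 thymus markers and 4628 CPM of 8 cardiomyocyte markers, where the other libraries held at least 9014 CPM of the latter. It also held 2429 CPM of 10 adipocyte markers and 30.2 CPM of 8 lung epithelium markers. Replicate 1 of IRR_6w had 4639 CPM of the adipocyte markers, 2880 CPM of 6 atrial markers and 364 CPM of the lung epithelium markers. Replicate 3 of IRR_1d had 1517 CPM of the adipocyte and 1982 CPM of the atrial markers. It also had 2011 CPM of 8 smooth muscle markers, against at most 528 CPM of the smooth muscle markers in the other libraries. Replicates 1, 2 and 3 of Control_6w held 77.9, 59.1 and 54.6 CPM of 8 germ cell markers, against at most 0.301 CPM in the other 11 libraries. Not all of these markers were present. In Control_6w, Odf1, Tssk2 and Mael reached 34.5, 20.9 and 19.9 CPM, and Prm1 and Tnp2 3.20 and 0.995 CPM. Prm2, Tnp1 and Ldhc had 0 CPM in all Control_6w hearts. The fits were repeated without the 4 libraries with many genes at 0, without the 3 libraries with thymus, adipocyte and atrial markers, here called markers of other tissues, and without the 3 libraries with germ cell markers. The last was chosen after seeing the data and leaves 1 Control_6w heart, whose spread is assumed to be that of the other groups.

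Timp4 was lower in every irradiated heart than in every control heart of the same time. Its gene lies on chromosome 6 (ENSMUSG00000030317, chr6:115241892-115252205, minus strand, mm10). At 1 day, the 3 control hearts held 57.7, 47.5 and 44.4 CPM of Timp4 and the 3 irradiated hearts 8.83, 16.5 and 7.33 CPM. The highest irradiated heart was thus well below the lowest control. At 6 weeks, the 4 control hearts held 168, 112, 29.2 and 91.0 CPM, and the 4 irradiated hearts 18.3, 19.9, 3.88 and 15.3 CPM. The low control value came from replicate 3, the library with thymus markers, and it still exceeded all irradiated hearts. The lowest value of all came from replicate 3 of IRR_6w, where 61 counts were observed and where many genes of low level had 0 counts.

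In edgeR's quasi-likelihood test with Benjamini-Hochberg adjustment over all 16034 genes, Timp4 fell by 2.80 on the log2 scale at 6 weeks (SE 0.534, 6.97-fold lower, adjusted p = 0.0468). It was the member that passed the test at 6 weeks, where a gene was called at an adjusted p under 0.05 and a fold above 2 or below 0.5, and 0.256% of all tested genes were called. The call was close to the limit. It was kept when replicate 3 of IRR_1d, replicate 3 of Control_6w or replicate 1 of IRR_6w was left out, and lost, at adjusted p between 0.0521 and 0.174, when any of the other 11 libraries was left out. Without the 4 libraries with many genes at 0 the log2 fold change was -2.0 (adjusted p = 0.612), and without the 3 libraries with markers of other tissues it was -3.24 (adjusted p = 0.0104). The Control_6w heart without germ cell markers held 91.0 CPM, above all irradiated hearts, and with it as the lone control the estimate was -2.66 (edgeR adjusted p = 1). Over 25 alternative settings the log2 fold change lay between -3.24 and -2.0, below 0 in all 25 and called in 10, with adjusted p from 4.21e-05 to 1.

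At 1 day the Timp4 log2 fold change was -2.20 (SE 0.605, 4.59-fold lower, edgeR adjusted p = 0.998), so the difference did not pass after adjustment. DESeq2 on these 6 libraries alone gave an adjusted p of 4.77e-05, and 1 of 25 alternatives called it. The log2 fold change lay between -2.59 and -1.98 over these alternatives. A test of whether the Timp4 effect differed between the times did not pass (log2 difference of the effects -0.60, SE 0.768, edgeR adjusted p = 0.990).

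**Figure D1:**
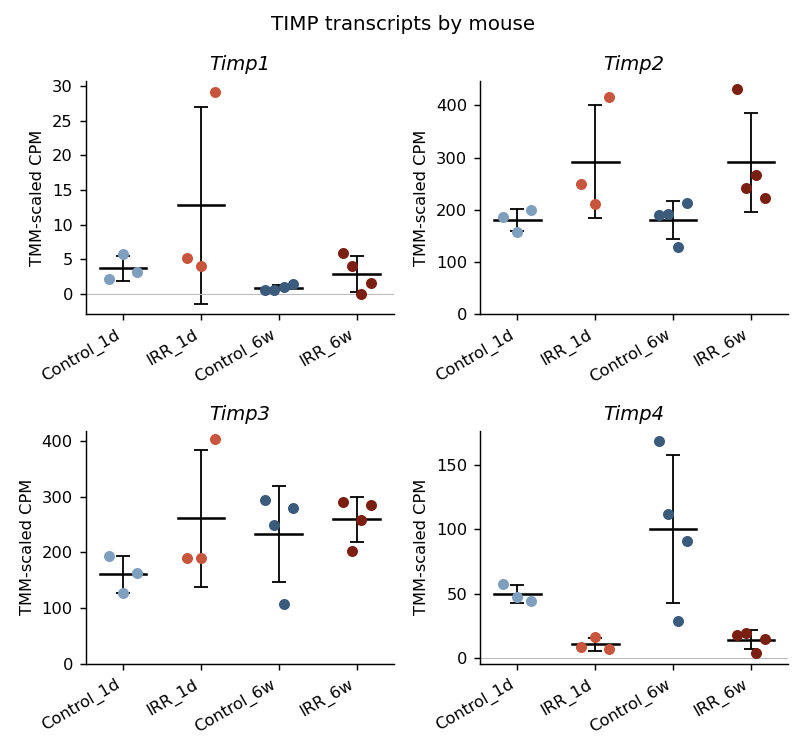
TMM-scaled CPM (linear axes) of the 4 TIMP genes in each mouse of the 4 groups; horizontal lines are means and bars are SDs (n = 3 at 1 day, n = 4 at 6 weeks). Timp4 of irradiated hearts lay at 3.88 to 19.9 CPM, below all control hearts (29.2 to 168 CPM), whereas Timp2 of irradiated hearts lay above the controls of the same time.

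Cell type markers moved in some of the same libraries. The summed level of 8 cardiomyocyte markers was 26400 to 38457 CPM in Control_1d and 15458 to 30688 CPM in IRR_1d, and 4628 to 35227 CPM in Control_6w and 9014 to 25110 CPM in IRR_6w, so the groups overlapped at both times. Of the 8 markers, 3 were lower in every IRR_1d than in every Control_1d heart, as Timp4 and 4.14% of all genes were. They were Actc1 (3501 to 7862 against 7911 to 12626 CPM), Ryr2 (644 to 1258 against 1567 to 1925 CPM) and Ttn (1010 to 2542 against 2646 to 3590 CPM). The other markers overlapped. Of these, Tnnt2 (1404 to 3771 against 1026 to 3643 CPM) and Tnni3 (1353 to 3303 against 1181 to 2979 CPM) ranged higher in IRR_1d. At 6 weeks all 8 overlapped. Replicates 1 and 2 of IRR_1d had marker sums of 30688 and 26773 CPM, within the range of their controls, with Timp4 at 8.83 and 16.5 CPM. Replicate 3 of IRR_1d had both the lowest sum, 15458 CPM, and the lowest Timp4, 7.33 CPM, of the 1-day hearts. Likewise, replicate 3 of Control_6w had the lowest sum and the lowest Timp4 of its group, while in IRR_6w the lowest sum (replicate 1) and the lowest Timp4 (replicate 3) were in different hearts. The summed level of 8 endothelial markers was 1481 to 1853 CPM in Control_1d and 1370 to 1440 CPM in IRR_1d, lower without overlap as Timp4 was. At 6 weeks it was 626 to 1874 CPM in Control_6w and 1538 to 1894 CPM in IRR_6w, with overlap. Of the single endothelial markers at 1 day, Kdr was lower without overlap (169 to 334 CPM in IRR_1d against 414 to 572 CPM), and the others overlapped. Vwf ranged higher in IRR_1d (129 to 411 against 71.6 to 157 CPM), and Pecam1 was at 252 to 335 against 253 to 310 CPM. In bulk tissue, fewer cells of a type and less RNA per cell cannot be told apart. Adipocyte marker sums spanned 237 to 4639 CPM in IRR_6w and 471 to 2429 CPM in Control_6w. Among the adipocyte markers, Fabp4 spanned 142 to 1482 CPM in IRR_6w and 342 to 1172 CPM in Control_6w. Adipoq spanned 0 to 331 CPM in IRR_6w and 0 to 132 CPM in Control_6w. The part of cardiomyocytes, endothelium and adipocytes in the Timp4 difference was not tested.

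**Figure D2:**
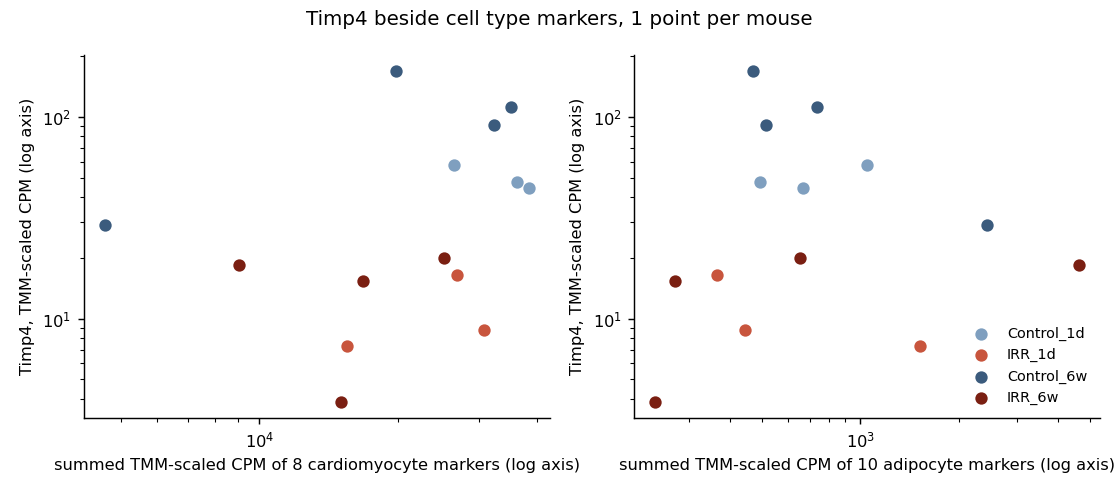
Timp4 (TMM-scaled CPM, log axis) in each mouse against the summed TMM-scaled CPM of 8 cardiomyocyte markers (left, log axis) and 10 adipocyte markers (right, log axis), colored by group. Irradiated hearts held up to 19.9 CPM of Timp4. The control heart with the lowest cardiomyocyte sum (4628 CPM) also had the lowest Timp4 of the controls, 29.2 CPM. The part of these cell types in the Timp4 difference was not tested.

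Of the other TIMPs, 0 passed the test at either time. Timp2 (ENSMUSG00000017466, chr11:118301069-118355740, minus strand), the most abundant TIMP per length in all 4 groups, measured 186, 158 and 200 CPM in Control_1d and 249, 212 and 415 CPM in IRR_1d. At 6 weeks it measured 191, 191, 129 and 214 CPM in controls and 432, 242, 266 and 223 CPM in irradiated hearts. Irradiated hearts lay above controls at both times without overlap, although by a small margin at 6 weeks. The log2 fold change was 0.69 at 1 day (SE 0.328, edgeR adjusted p = 1) and 0.68 at 6 weeks (SE 0.284, edgeR adjusted p = 0.492), and neither passed the test. Without the 3 libraries with markers of other tissues, Timp2 stood at 0.35 at 1 day and 0.29 at 6 weeks.

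Timp1 (ENSMUSG00000001131, chrX:20870166-20874735, plus strand) was the TIMP with the fewest counts, 0 to 442 per library. Control_1d hearts held 2.19, 5.74 and 3.16 CPM and IRR_1d hearts 5.22, 4.03 and 29.2 CPM. The group mean at 1 day was carried by replicate 3 of IRR_1d, and the other irradiated hearts overlapped the controls. At 6 weeks controls held 0.609, 0.612, 1.03 and 1.48 CPM, and irradiated hearts 5.92, 4.03, 0 and 1.52 CPM. In this group 3 hearts were above all controls, and replicate 3 had 0 counts, which allows up to 0.191 CPM on the same scale. The log2 fold changes of 1.80 (SE 1.17) at 1 day and 1.61 (SE 1.03) at 6 weeks did not pass (edgeR adjusted p = 1 and 0.711), and without replicate 3 of IRR_1d the former was 0.33. Without the 3 libraries with markers of other tissues the 6-week value was 1.03, without the 4 libraries with many genes at 0 it was 2.25, with the lone control heart it was 0.97, and in limma-voom it was 0.25 (SE 1.63).

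Timp3 (ENSMUSG00000020044, chr10:86300372-86349506, plus strand) held 193, 127 and 162 CPM in Control_1d and 190, 189 and 403 CPM in IRR_1d. It held 294, 249, 107 and 280 CPM in Control_6w and 290, 203, 258 and 286 CPM in IRR_6w. The groups overlapped at both times. For Timp3 the log2 fold change was 0.70 (SE 0.387, edgeR adjusted p = 1) at 1 day and 0.16 (SE 0.334, edgeR adjusted p = 0.926) at 6 weeks, and the latter turned to -0.081 without replicate 3 of Control_6w. At 1 day it was 0.24 without the 3 libraries with markers of other tissues.

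The ratio of Timp4 to each other TIMP within a library does not depend on library scaling. Against Timp2, the count ratio was 0.310, 0.301 and 0.222 in Control_1d and 0.0354, 0.0777 and 0.0177 in IRR_1d. At 6 weeks it was 0.882, 0.585, 0.227 and 0.426 in controls and 0.0425, 0.0825, 0.0146 and 0.0685 in irradiated hearts. Every irradiated heart thus had a lower Timp4 to Timp2 ratio than every control heart of its time. The mean log2 ratio differed by -2.91 at 1 day and by -3.45 at 6 weeks, or 10.9-fold lower (two-sided exact permutation p = 0.0286, the smallest that 4 against 4 allows; 0.0857 adjusted over 6 ratio tests). Against Timp3 the differences were -2.90 at 1 day and -3.04 at 6 weeks (exact permutation p = 0.0286, adjusted 0.0857), again without overlap. Against Timp1 the differences were -3.58 at 1 day, without overlap, and -3.00 at 6 weeks (exact permutation p = 0.0857, adjusted 0.10), where replicate 3 of IRR_6w, with 0 Timp1 counts, fell into the control range. Leaving out 1 library moved the Timp1 ratio, which differed by -2.46 at 1 day without replicate 3 of IRR_1d (-2.30 for the Timp3 ratio), and at 6 weeks by -4.13 without replicate 3 and -2.36 without replicate 1 of IRR_6w. At 1 day all 3 ratios had exact permutation p = 0.10, the smallest that 3 against 3 allows.

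**Figure D3:**
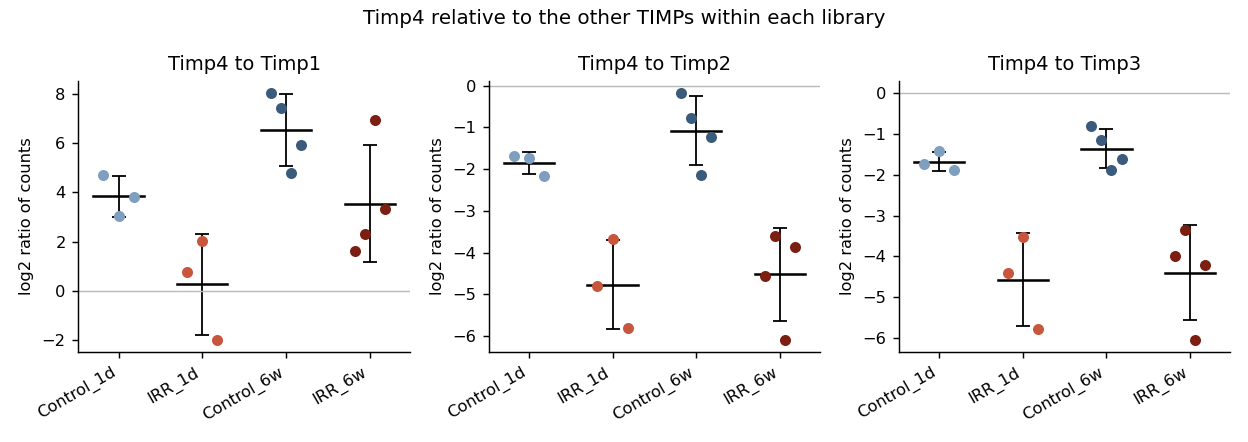
Log2 ratio of Timp4 counts to Timp1, Timp2 and Timp3 counts within each library (0.5 added to each count), with group means as lines and SDs as bars. Relative to Timp2 and Timp3, all irradiated hearts lay at or below -3.35, and all controls at or above -2.17.

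Per length, Timp4 made up 10.8 ± 1.4% (SD, n = 3) of the summed TIMP FPKM in Control_1d and 1.84 ± 1.34% in IRR_1d. At 6 weeks it made up 17.0 ± 6.60% (SD, n = 4) in controls and 2.22 ± 1.23% in irradiated hearts. Timp2 held the largest share throughout, 58.9 ± 2.94% and 62.5 ± 5.91% at 1 day and 51.7 ± 8.47% and 65.8 ± 4.94% at 6 weeks. The summed TIMP level was 70.6 to 83.8 FPKM in Control_1d and 85.0 to 190 FPKM in IRR_1d, without overlap. The groups overlapped at 6 weeks, with 52.4 to 114 FPKM in controls and 94.9 to 156 FPKM in irradiated hearts. These shares repeat the levels above and were not tested.

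Each of Timp1, Timp3 and Timp4 lies within a synapsin gene on the opposite strand, which are Syn1, Syn3 and Syn2 in this order. Whether the counting used strand was not given in the sources used here. In the reference annotation Timp1 shares no exonic bases with Syn1, Timp4 shares 1.53% of its exonic bases with Syn2 and Timp3 shares 21.3% with Syn3. Counts of these synapsins were 0 to 61 for Syn1, 44 to 388 for Syn2 and 0 to 26 for Syn3, against 0 to 442 for Timp1, 61 to 2212 for Timp4 and at least 1257 for Timp3. The ranges of Syn2 and Timp4 counts thus overlap.

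Among the proteases, Mmp2 was higher in irradiated hearts at both times. Mmp2 (ENSMUSG00000031740, chr8:92827291-92853420, plus strand), or gelatinase A, cuts denatured collagen and basement membrane collagen. It measured 71.4, 64.5 and 108 CPM in Control_1d and 290, 234 and 394 CPM in IRR_1d. At 6 weeks it measured 78.4, 83.3, 32.1 and 103 CPM in controls and 150, 171, 178 and 273 CPM in irradiated hearts. No irradiated heart overlapped the controls of its time. Its log2 fold change was 1.91 at 1 day (SE 0.401, 3.76-fold, edgeR adjusted p = 0.365) and 1.38 at 6 weeks (SE 0.342, 2.60-fold, edgeR adjusted p = 0.118), and neither passed after adjustment. Mmp2 was called in 3 of 25 alternatives at each time, with adjusted p from 4.48e-05 to 1 at 1 day and from 0.00738 to 1 at 6 weeks, and its estimate was above 0 in all 25. At 6 weeks it was 1.23 (adjusted p = 0.0487) without the 3 libraries with markers of other tissues and 0.89 with the lone control heart. The ratio of Mmp2 to the summed TIMPs, both in FPKM, was 0.305 ± 0.0743 (SD, n = 3) in Control_1d and 0.780 ± 0.150 in IRR_1d. It was 0.230 ± 0.0469 (SD, n = 4) in Control_6w and 0.546 ± 0.226 in IRR_6w, with no overlap at 1 day and a slight overlap at 6 weeks.

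Adamts2 (ENSMUSG00000036545, chr11:50602084-50807573, plus strand), the protease that removes the amino-terminal propeptide of fibrillar procollagens, did not pass the test at either time. Its levels of 59.6, 55.8 and 51.9 CPM in Control_1d overlapped those of 57.7, 50.2 and 121 CPM in IRR_1d. At 6 weeks controls held 38.0, 25.8, 15.8 and 37.0 CPM and irradiated hearts 75.5, 63.0, 129 and 91.1 CPM. All 4 irradiated hearts lay above all 4 controls, and all 4 controls also lay below the Control_1d hearts (log2 fold change -0.94), while IRR_6w against IRR_1d stood at 0.23. The log2 fold change at 6 weeks was 1.62 (SE 0.345, 3.07-fold, edgeR adjusted p = 0.0709), and at 1 day 0.45 (SE 0.389, edgeR adjusted p = 1), or -0.043 without replicate 3 of IRR_1d. The 6-week difference missed the threshold, and 6 of 25 alternatives called it, with adjusted p from 0.00142 to 1 (1.49 at 0.0210 without the 3 libraries with markers of other tissues, and 1.25 at 1 with the lone control heart).

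Mmp14 (ENSMUSG00000000957, chr14:54431612-54445364, plus strand), the membrane-bound metalloproteinase that activates the Mmp2 proenzyme, overlapped between groups at both times. It measured 11.9, 24.4 and 32.3 CPM in Control_1d and 33.8, 25.6 and 63.4 CPM in IRR_1d, and 8.14, 21.6, 19.0 and 25.1 CPM in Control_6w and 47.2, 48.2, 21.9 and 23.4 CPM in IRR_6w. At 6 weeks 2 irradiated hearts lay well above the controls and the other 2 within their range. On the log2 scale Mmp14 differed by 0.84 (SE 0.494) at 1 day and by 0.93 (SE 0.429) at 6 weeks, with edgeR adjusted p of 1 and 0.555. Over the alternatives it ranged from 0.38 to 1.21 at 1 day and from 0.49 to 1.15 at 6 weeks.

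Of the lysyl oxidases, Loxl2 had the largest difference at 6 weeks. Loxl2 (ENSMUSG00000034205, chr14:69609068-69695834, plus strand) cross-links fibrillar and basement membrane collagens. Its levels were 63.9, 23.6 and 36.9 CPM in Control_1d and 37.2, 32.5 and 40.6 CPM in IRR_1d. At 6 weeks controls held 29.2, 21.0, 6.95 and 23.6 CPM, and irradiated hearts 20.0, 46.7, 97.9 and 108 CPM. Replicate 1 of IRR_6w, the library with adipocyte and atrial markers, lay within the control range and the other 3 above it. For Loxl2 the log2 fold change was 1.76 at 6 weeks (SE 0.512, edgeR adjusted p = 0.208) and -0.17 at 1 day (SE 0.575, edgeR adjusted p = 1), the latter 0.28 without replicate 1 of Control_1d. The 6-week value was 0.98 without the 4 libraries with many genes at 0, and 2 of 25 alternatives called it. Without the 3 libraries with markers of other tissues it was 1.77 (adjusted p = 0.0487). From Control_1d to Control_6w Loxl2 stood at -1.04 (SE 0.535, edgeR adjusted p = 0.902), and from IRR_1d to IRR_6w at 0.89 (SE 0.549).

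Lox (ENSMUSG00000024529, chromosome 18, minus strand), which cross-links collagen and elastin, showed a wide spread. It measured 25.7, 30.2 and 10.7 CPM in Control_1d and 12.1, 19.3 and 80.5 CPM in IRR_1d, and the log2 fold change of 0.75 (SE 0.669; adjusted p = 1 in edgeR) turned to -0.50 without replicate 3 of IRR_1d. At 6 weeks it measured 17.5, 10.3, 40.9 and 14.1 CPM in controls and 42.5, 18.8, 46.6 and 29.4 CPM in irradiated hearts (log2 fold change 0.73; SE 0.578; adjusted p = 0.772 in edgeR). Replicate 3 of Control_6w was the control that overlapped the irradiated range, and without it the estimate was 1.30. Loxl1 (ENSMUSG00000032334, chr9:58287738-58313186, minus strand), which acts on elastin, measured 52.7 to 77.5 CPM in Control_1d, 53.0 to 127 CPM in IRR_1d, 24.0 to 70.8 CPM in Control_6w and 41.2 to 76.8 CPM in IRR_6w. Its log2 fold changes of 0.46 (SE 0.401) and 0.22 (SE 0.347) did not pass (edgeR adjusted p = 1 and 0.895), and the 6-week value was -0.017 without replicate 3 of Control_6w.

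**Figure D4:**
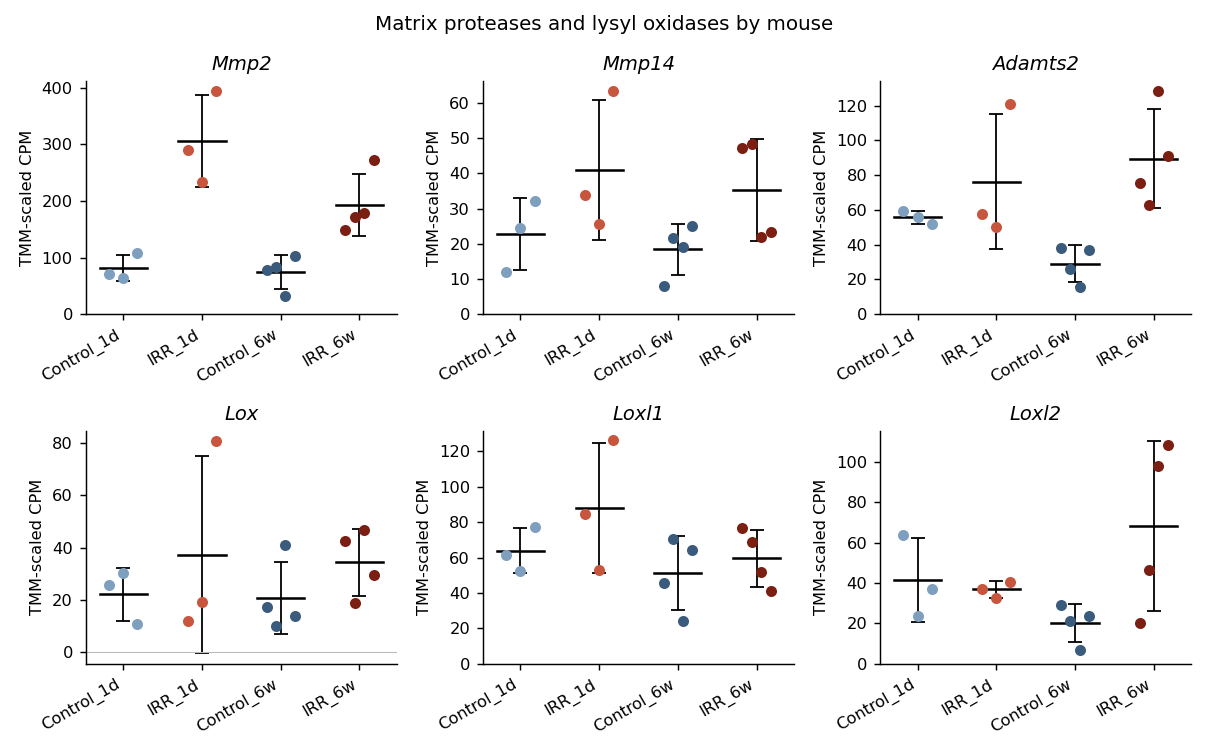
TMM-scaled CPM (linear axes) of 3 proteases and 3 lysyl oxidases in each mouse of the 4 groups, with means as lines and SDs as bars. Mmp2 of irradiated hearts (150 to 394 CPM) lay above all controls of either time (32.1 to 108 CPM), and Adamts2 separated the groups at 6 weeks.

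Over all 10 members, 0 were called at 1 day, where 0.0249% of all tested genes were called, and 1 at 6 weeks. Before adjustment (p under 0.05, fold limits kept), 2 members (Timp4 and Mmp2) passed at 1 day against 2.23% of all genes. At 6 weeks 4 members (Timp4, Mmp2, Adamts2 and Loxl2) passed against 5.43% of all genes. Irradiated hearts lay above controls without overlap for 2 members at 1 day (Timp2 and Mmp2; 6.52% of all genes) and for 3 members at 6 weeks (Timp2, Mmp2 and Adamts2; 4.08%). They lay below controls without overlap for 1 member at each time, Timp4 (4.14% of all genes at 1 day and 1.64% at 6 weeks). The estimate was above 0 for 8 of 10 members at 1 day, where 55.1% of all genes were above 0, and for 9 of 10 at 6 weeks, where 43.8% were. Some of these directions rested on 1 library. Without replicate 3 of IRR_1d, Adamts2 (-0.043) and Lox (-0.50) fell below 0 at 1 day. Loxl2 at 1 day rose to 0.28 without replicate 1 of Control_1d. Without replicate 3 of Control_6w, Timp3 (-0.081) and Loxl1 (-0.017) fell below 0 at 6 weeks. The median log2 fold change of the members was 0.69 at 1 day and 0.83 at 6 weeks, beside 0.06 and -0.09 over all genes tested.

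**Figure D5:**
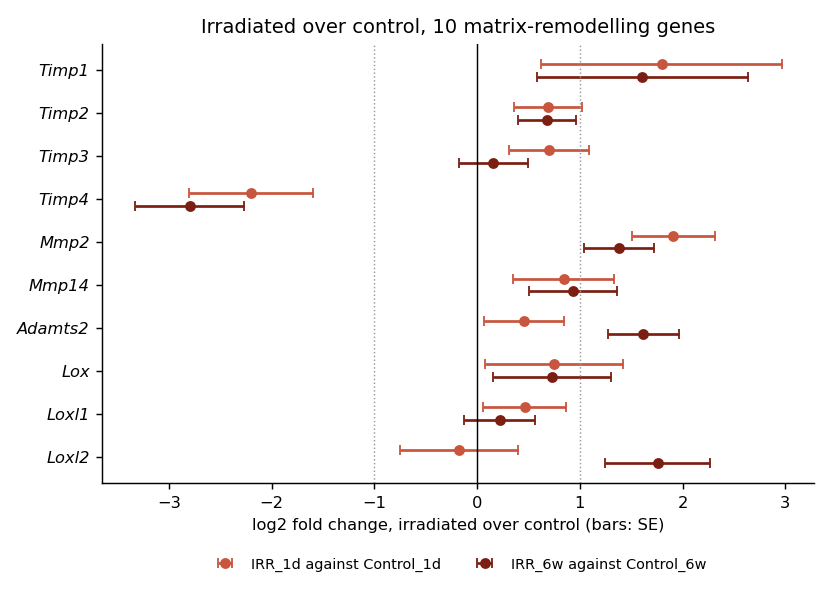
Log2 fold change, irradiated over control, of the 10 members at 1 day and at 6 weeks with SE bars from edgeR; dotted lines mark 2-fold changes. Timp4 lay at -2.20 and -2.80, while Mmp2 lay at 1.91 and 1.38 and Timp1 at 1.80 and 1.61, and Adamts2 and Loxl2 lay beyond the 2-fold line at 6 weeks.

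The order of the levels per length changed around Timp4. In Control_1d, Timp2 led with 46.5 ± 5.47 FPKM (SD, n = 3) and did not overlap Mmp2 with 24.1 ± 6.94 FPKM. Timp3 and Loxl1 followed, each overlapping its neighbour above, and Timp4 was the fifth with 8.46 ± 1.19 FPKM. In IRR_1d, Mmp2 with 90.8 ± 24.1 FPKM and Timp2 with 75.0 ± 27.8 FPKM led and overlapped each other. Timp4 had the lowest mean of the 10, 1.85 ± 0.832 FPKM, and did not overlap Loxl2, the next by mean. Timp4 did overlap Lox, since its highest IRR_1d heart (2.80 FPKM) lay above the lowest of Lox (2.51 FPKM). In Control_6w every member overlapped its neighbour in the order, from Timp2 with 46.5 ± 9.36 FPKM (SD, n = 4) to Timp1 with 1.05 ± 0.468 FPKM, and Timp4 was the fourth with 17.0 ± 9.75 FPKM. In IRR_6w, Timp2 with 74.6 ± 24.5 FPKM and Mmp2 with 57.3 ± 16.2 FPKM led, and Timp4 with 2.44 ± 1.23 FPKM was again the lowest and overlapped Timp1 with 3.23 ± 2.96 FPKM.

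Few member differences were seen with time alone. From Control_1d to Control_6w, edgeR called 0 members and 0% of all genes, and with an unadjusted p and the fold limits 0 members passed against 3.75% of all genes. Timp1 and Adamts2 were lower in all Control_6w hearts than in all Control_1d hearts, as were 2.53% of all genes, and 0 members were higher without overlap (3.39% of all genes). The log2 fold changes were -1.97 (SE 1.09) for Timp1 and -0.94 (SE 0.362) for Adamts2, both with edgeR adjusted p = 0.902. Timp4 was at 1.01 (SE 0.552, edgeR adjusted p = 0.902) between the control groups. From IRR_1d to IRR_6w, 0 members were called (0.0374% of all genes) or passed the unadjusted limits (3.85%), and 0 members separated upwards (5.47%) or downwards (3.84%), with Timp4 at 0.40 (SE 0.550) and Mmp2 at -0.66 (SE 0.360). DESeq2 and limma-voom also called 0 members in both.

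Between the times, the effect of irradiation differed beyond the unadjusted limits for 2 members, and after adjustment for 0. The log2 difference of the effects, 6 weeks minus 1 day, was 1.93 for Loxl2 (SE 0.768) and 1.17 for Adamts2 (SE 0.516), and edgeR adjusted p was 0.990 for both. The count of 2 fell to 0 when replicate 1 of Control_1d, replicate 2 of IRR_1d or replicate 3 or 4 of IRR_6w was left out. It was also 0 without the 4 libraries with many genes at 0 or the 3 with germ cell markers. It was 1 without replicate 2 or 3 of Control_1d, replicate 1 of IRR_1d or replicate 2 or 3 of Control_6w. Without the 3 libraries with markers of other tissues it was 3. In this test 0 members and 0% of all genes were called, DESeq2 and limma-voom also called 0 members, and the unadjusted limits were passed by 2.86% of all genes.

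Genes near the members in the remodelling pathway were taken as fixed lists. Of 19 other matrix metalloproteinases, 14 had enough counts, and edgeR called 0 at 1 day and 0 at 6 weeks, with 2 at each time past the unadjusted limits. Of all genes, 2.23% passed these limits at 1 day and 5.43% at 6 weeks. The 2 at 1 day went in opposite directions, Mmp3 at 1.20 and Mmp13 at -2.82. DESeq2, on all samples and on the 2 groups alone, called 0 at 1 day and 1 at 6 weeks (Mmp3), and limma-voom 0 at both. The smallest p among them were those of Mmp13, or collagenase 3, at 1 day (0.671 ± 0.757 against 4.81 ± 2.52 CPM in controls, log2 fold change -2.82; SE 1.04; adjusted p = 1 in edgeR; -4.27 without replicate 3 of IRR_1d), and of Mmp3, or stromelysin 1, at 6 weeks (26.6 ± 8.88 against 8.23 ± 2.18 CPM, 1.69, SE 0.490, edgeR adjusted p = 0.203; DESeq2 adjusted p = 0.0380 on all samples and 0.000557 on the 2 groups alone). Their median log2 fold change was 0.24 at 1 day and 0.26 at 6 weeks.

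Of 25 other ADAMTS and ADAM proteases, 23 were tested, and Adamts12 was higher in IRR_6w than in Control_6w. It measured 15.8 ± 3.25 CPM (SD, n = 4) in IRR_6w and 2.65 ± 1.11 CPM in Control_6w (log2 fold change 2.57; SE 0.424; adjusted p = 0.0250 in edgeR). The 6-week controls were the low group, since Adamts12 stood at 13.6 ± 7.47 CPM in Control_1d and 9.84 ± 2.37 CPM in IRR_1d (Control_6w against Control_1d -2.36, SE 0.440, edgeR adjusted p = 0.244, and called by DESeq2 at adjusted p = 0.000331 on all samples and 0.0214 on the 2 groups alone; IRR_6w against IRR_1d 0.68, SE 0.436, edgeR adjusted p = 0.999). The call of IRR_6w against Control_6w was lost, at edgeR adjusted p of 0.0562 to 0.126, without replicate 1 or 2 of Control_6w or replicate 2, 3 or 4 of IRR_6w, at 0.0641 with a replicate block, at 0.0612 on the 2 groups alone, at 0.0976 with limma-voom, at 0.463 without the 4 libraries with many genes at 0 and at 1 without the 3 with germ cell markers. It was made in 15 of 25 alternatives, with log2 fold changes from 1.99 to 2.81. DESeq2, on all samples and on the 2 groups alone, called 2 of the list at 6 weeks, Adamts12 and Adamts4, and limma-voom called 0. Adamts4 measured 20.3 ± 14.4 CPM in IRR_6w and 2.28 ± 1.45 CPM in Control_6w (log2 fold change 3.15, SE 1.01, edgeR adjusted p = 0.285). At 6 weeks 19 of the 23 were above 0, with a median of 0.72, and at 1 day 12 of 23, with a median of 0.06. Adamts9, which cuts versican, was at -1.13 (SE 0.421, edgeR adjusted p = 1) at 1 day. Of 15 genes of procollagen processing and cross-linking, all 15 were tested and edgeR called 0 at 1 day and 0 at 6 weeks. Past the unadjusted limits was 1 at each time, beside 2.23% and 5.43% of all genes. The medians of the 15 genes were 0.57 at 1 day and 0.61 at 6 weeks. DESeq2 on the 2 groups alone called 1 of them at 6 weeks, Loxl4, and on all samples 0, as did limma-voom.

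All 8 matrix proteins on which the members act had estimates above 0 at both times. Of all genes, 55.1% were above 0 at 1 day and 43.8% at 6 weeks. The median log2 fold changes of the 8 were 0.75 at 1 day and 1.42 at 6 weeks. At 1 day edgeR called 0 of the 8. The IRR_1d hearts spread widely for Eln (172 ± 202 CPM, SD, n = 3) and Col1a1 (378 ± 303 CPM), and less for Fbn1 (244 ± 51.5 CPM). From Control_1d to Control_6w 1 of the 8 was above 0, with a median of -0.50. From IRR_1d to IRR_6w 4 of the 8 were above 0, with a median of -0.016. Fn1, which encodes fibronectin, rose at 6 weeks from 90.7 ± 31.6 CPM in controls to 550 ± 151 CPM in irradiated hearts (SD, n = 4; log2 fold change 2.60; SE 0.390; adjusted p = 0.0188 in edgeR), and in edgeR it was the one of the 8 that passed, against 4 with DESeq2 on all samples, 5 with DESeq2 on the 2 groups alone and 1 with limma-voom. The Fn1 call was lost, at edgeR adjusted p of 0.0567 to 0.115, without replicate 1 or 2 of Control_6w or replicate 3 or 4 of IRR_6w, and at 0.511 and 1 without the 4 libraries with many genes at 0 and the 3 with germ cell markers. Over 25 alternatives 19 called it, with log2 fold changes from 2.0 to 2.87. Col3a1, a fibrillar collagen, stood at 273 ± 71.8 CPM in controls and 814 ± 195.3 CPM in irradiated hearts at 6 weeks (1.57, SE 0.371, edgeR adjusted p = 0.109), and 4 of 25 alternatives called it, with adjusted p from 0.000114 to 1. At 1 day Col3a1 stood at 570 ± 25.3 CPM in controls and 875 ± 610 CPM in irradiated hearts. The 6-week controls were the low group (Control_6w against Control_1d -1.06, SE 0.389, edgeR adjusted p = 0.902). IRR_6w against IRR_1d stood at -0.10 (SE 0.390) for Col3a1. Of macrophage markers, 8 summed to 249 to 657 CPM in Control_6w and 1062 to 1345 CPM in IRR_6w without overlap, and 8 fibroblast markers to 1165 to 3628 CPM and 1898 to 3271 CPM. Lyz2 alone held 643 to 754 CPM in IRR_6w and 122 to 356 CPM in Control_6w. Adgre1, Cd68, Csf1r and Mrc1 were also higher in IRR_6w without overlap, and C1qa and Fcgr1 overlapped. Cd163 ranged lower in IRR_6w, with overlap (11.8 to 32.5 against 16.4 to 51.1 CPM). At 1 day the macrophage sums were 582 to 851 CPM in controls and 639 to 774 CPM in irradiated hearts, and the fibroblast sums 2345 to 3215 CPM and 3104 to 4023 CPM, both with overlap. Of the 8 fibroblast markers, 3 were higher in every IRR_1d than in every Control_1d heart, beside 6.52% of all genes. They were Pdgfra (79.5 to 98.2 against 62.5 to 76.9 CPM), Tcf21 (11.5 to 17.2 against 4.83 to 11.2 CPM) and Mfap5 (41.1 to 84.1 against 22.3 to 36.7 CPM). Dpep1 ranged lower in IRR_1d, with overlap (41.2 to 52.9 against 50.4 to 69.5 CPM). At 6 weeks 1 of the 8 was higher without overlap, Lum (146 to 191 against 73.6 to 139.7 CPM), beside 4.08% of all genes. The part of these cells in the higher levels of Mmp2, Timp2, Adamts2 and the matrix genes was not tested.

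Across the 14 libraries, the genes whose log2 levels were most like Timp4 by Pearson correlation were Aqp1 (r = 0.918), which encodes a water channel, Tnfrsf21 (0.907), Rnf144a (0.890), Lnx2 (0.888) and Vwa3a (0.877). They are a description, since the libraries share their groups and scaling and the genes were picked as the top 5 of all tested. Aqp1 measured 551 ± 29.1 CPM in Control_1d, 336 ± 44.0 CPM in IRR_1d, 890 ± 441 CPM in Control_6w and 214 ± 99.0 CPM in IRR_6w. Among the members, the correlation with Timp4 was below 0 for all the other 9, from -0.14 for Timp3 to -0.68 for Mmp2.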

How the data were processed

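The authors prepared RNA from heart tissue, sequenced paired-end libraries, checked reads with FastQC 0.11.8, trimmed them with Trim Galore 0.6.1, aligned them to mm10 with STAR 2.5.0a and used HTSeq for counting. The authors deposited 1 table of raw counts (whole numbers, not normalized) for 54532 genes and 14 libraries, 1 per mouse, with gene coordinates and lengths; the annotation release and strand setting were not given in the sources used here. Groups came from the labels. The authors' methods name DESeq2 for testing; here it served as an alternative.

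The counts were filtered (filterByExpr), TMM-scaled and tested in 1 fit of the 4 groups with edgeR 4.0.16 (quasi-likelihood, R 4.3.3), with Benjamini-Hochberg adjustment over 16034 genes; a gene was called at an adjusted p under 0.05 and a fold above 2 or below 0.5. FPKM was computed here from TMM-scaled CPM and the deposited lengths. Count ratios within libraries (0.5 added) were compared by two-sided exact permutation (scipy 1.17.1). Alternatives were DESeq2 1.42.0, limma-voom 3.58.1, the 2 groups alone, library totals, no filter, a replicate block, and libraries left out (those with germ cell markers added after seeing the data). The fit was tested on simulated data. Named were all 10 members, the 5 genes most like Timp4 and list genes that were called. The 2 list genes with the smallest p in each irradiation comparison over 3 pathway lists were also named. Syn1, Syn2, Syn3, Col3a1, Col1a1, Eln, Fbn1, Loxl4, Adamts4 and single cell type markers were named after their values were seen. The members and lists were chosen with earlier results of these data known. Counting intervals cover counting error only.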

Additional observations from a re-analysis of the deposited data

How the results depend on the processing

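At 6 weeks 1 of the 10 members was called. The number was 4 with DESeq2 on all samples, 3 with DESeq2 on the 2 groups alone, 2 with library totals in place of TMM, 2 without the filter, 4 without the 3 libraries with markers of other tissues, 4 with unadjusted p, and 0 with limma-voom, with edgeR on the 2 groups alone, without the 4 libraries with many genes at 0 and without the 3 libraries with germ cell markers. Over all genes 41 of 16034 were called, 344 of 28748 with DESeq2 on all samples, 358 of 26881 with DESeq2 on the 2 groups, 83 with library totals, 138 of 29699 without the filter, 180 of 15933 without the 3 libraries with markers of other tissues, 18 with limma-voom, 13 of 14610 with edgeR on the 2 groups, 0 of 16387 without the 4 libraries and 0 of 18483 without those with germ cell markers. The number of members ran from 0 to 2 when each library was left out in turn. At 1 day, where 0 were called, DESeq2 gave 1 on all samples and 2 on the 2 groups alone (over all genes 4, then 33 and 59), unadjusted p gave 2 members, and leaving out each library gave 0 to 1. The test of the change in effect gave 2 with unadjusted p. The causes of these differences were not tested.

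Estimates that changed sign were Adamts2 at 1 day (-0.046 without the 3 libraries with markers of other tissues; -0.043 to 0.70 on leaving out each library), Lox at 1 day (-0.50; -0.50 to 1.19), Loxl2 at 1 day (0.27 without the 4 libraries; -0.43 to 0.28), Timp3 at 6 weeks (-0.14, and -0.13 without the 3 libraries with germ cell markers; -0.081 to 0.27), Loxl1 at 6 weeks (-0.16 and -0.12; -0.017 to 0.40) and the change in the Timp4 effect (0.091 without the 4 libraries). Library totals moved the 6-week median over all genes, on the log2 scale, from -0.09 to 0.14 and turned none of the members' directions given in the text.

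With 5 added to each count, the 6-week log2 ratio of Timp4 to Timp1 differed by -3.43 (exact permutation p = 0.0286). Leaving out each library gave -4.46 to -2.46 at 1 day and -4.13 to -2.36 at 6 weeks against Timp1, -3.45 to -2.39 and -3.42 to -2.30 at 1 day against Timp2 and Timp3, and, at 6 weeks, -3.80 to -2.92 against Timp2 and -3.39 to -2.49 against Timp3, the last 2 at exact permutation p = 0.0571, the smallest that 3 against 4 allows. Replicate numbers did not pair the mice: the deviations of same-numbered libraries correlated at -0.36 to 0.37, and 2 of 7 correlated best with their own number. With a replicate block the differences were -3.45 and -3.04 at p = 0.125, the smallest that 4 pairs allow in an exact permutation test, and edgeR with a replicate block called 1 member at 6 weeks, Timp4, and 15 genes in all.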
